A study of Mus musculus with 16 samples.

Results

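DNA replication genes were followed in muscle stem cells of mice with and without p53, the tumour suppressor protein that Trp53 encodes. The set holds 42 genes, chosen by symbol for their known roles in DNA replication and nucleotide synthesis, out of 24341 genes in the deposited files. They were chosen with earlier results of these data known. All 42 were found, and all 42 reached at least 1 FPKM (fragments per kilobase of transcript, scaled to the mapped fragments of the library) in at least 2 libraries, the limit for entry into the tests. Bulk RNA was measured in 16 libraries of 6 groups: p53KO_G2 (n = 2), p53WT_G2 (n = 2), p53KO_3dai (n = 3), p53WT_3dai (n = 3), p53KO (n = 3) and p53WT (n = 3), where KO and WT are the p53 genotypes. All groups were C57BL/6 mice aged 2 to 3 months, and cells were kept by flow cytometry if they carried CD34 and alpha-7 integrin but none of CD31, CD11b, CD45 and Sca-1. For 3dai the source was the tibialis anterior, a muscle of the shin, and for every other library it was hind limb muscle in general; suffix and muscle therefore cannot be told apart in any 3dai comparison. The labels spell out neither 3dai nor G2. The title of the series names a model of Duchenne muscular dystrophy, but no dystrophin genotype is given for any library. Which part of Trp53 was deleted is not stated in the labels. Nothing states that the replicates are separate animals, so the p-values reflect how far these samples spread, which may be technical.

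A cell copies its genome once in each division. The origin recognition complex binds the start sites, Cdc6 and Cdt1 load the ring of Mcm2 to Mcm7 there, and Cdc45 and the GINS complex join that ring to make the working helicase. Polymerases, held on DNA by the Pcna clamp, then copy both strands while RPA covers the single-stranded DNA, and Fen1 and Lig1 finish the short fragments of the lagging strand. Ribonucleotide reductase, thymidylate synthase and thymidine kinase supply the nucleotides. Muscle stem cells of resting adult muscle are mostly out of the cell cycle and enter it after injury, and many replication genes are known targets of the E2F transcription factors.

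Promoters of the members are shown first. RefSeq promoters on GRCm38.p6, 300 bases each with 250 bases before the transcription start and 50 after it, were found for 34 of the 42 members, 40 promoters in all; Rfc2, Prim2, Gmnn, Mcm4, Gins1, Gins4, Pole and Gins2 had none in the table. The letters TTGGCGC and TTCCCGC, which E2F factors are known to bind, were searched on both strands. They stood in 20 of the 40 promoters (50%), against 6.81% of all 32851 promoters and 12% of the 12560 promoters of genes that entered the tests. The median GC content was 57.5% in the 40 promoters, 52.7% in all promoters and 61% in those of the genes tested. In the lists nearest to the members, the E2F letters stood in 51.9% of 27 promoters of other replication genes, 38.5% of 13 promoters of chromatin assembly genes and 16.7% of 12 promoters of nucleotide supply genes. Among 20 promoters of genes of mitosis the E2F letters stood in 10%, and the letters TTTGAA or TTTAAA, the CHR element known from mitotic genes, stood in 85%. The CHR letters were in 22.5% of the members' promoters, in 27.6% of all promoters and in 19.2% of those of the genes tested. They were also in 61.5% of promoters of chromatin assembly genes, 33.3% of those of nucleotide supply genes and 22.2% of those of other replication genes. CCAAT, the letters bound by NF-Y, stood in 60% of the members' promoters and in 37.4% both of all promoters and of those of the genes tested. In the lists, CCAAT stood in 80% of promoters of mitosis genes and 61.5% of those of chromatin assembly genes. It stood in 41.7% of promoters of nucleotide supply genes and 37% of those of other replication genes. In Mcm3 and Rfc1 a match of TTGGCGC overlapped a match of the same motif on the other strand. A match describes letters in a window and not a bound site.

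Stretches with matches before the start that touch no annotated exon are given for 3 helicase subunits, a polymerase subunit and a subunit of ribonucleotide reductase. They are written 5′ to 3′ on the strand of the gene, with the E2F letters of either strand in capitals.
Mcm5, chr8:75109300-75109411, plus strand: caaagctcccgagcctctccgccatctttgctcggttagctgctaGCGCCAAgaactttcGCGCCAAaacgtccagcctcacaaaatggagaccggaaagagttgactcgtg
Mcm6, chr1:128359706-128359859, minus strand: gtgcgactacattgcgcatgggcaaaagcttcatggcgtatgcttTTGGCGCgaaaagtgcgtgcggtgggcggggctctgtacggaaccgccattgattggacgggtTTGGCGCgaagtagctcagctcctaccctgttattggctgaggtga
Mcm7, chr5:138171328-138171424, minus strand: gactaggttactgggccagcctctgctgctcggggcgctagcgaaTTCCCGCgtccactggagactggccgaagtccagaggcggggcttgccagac
Pola1, chrX:93632225-93632369, minus strand: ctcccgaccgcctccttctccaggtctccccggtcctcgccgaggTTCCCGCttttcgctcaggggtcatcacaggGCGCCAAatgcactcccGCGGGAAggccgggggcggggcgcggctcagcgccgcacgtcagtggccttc
Rrm1, chr7:102441583-102441679, plus strand: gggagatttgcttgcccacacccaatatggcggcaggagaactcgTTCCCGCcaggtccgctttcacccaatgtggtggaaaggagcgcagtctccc
The Pola1 stretch holds 3 matches, the Mcm5 and Mcm6 stretches 2 each, and the Mcm7 and Rrm1 stretches 1 each. The Mcm7 stretch lies before a RefSeq start inside the annotated span of the gene, chr5:138164583-138172422. Another Mcm7 promoter, chr5:138171834-138172133, is nearer the 5′ end and also holds E2F letters. Its stretch before the start touches exons and is not shown. The matches of Mcm6 began at positions -109 and -46 from the start, and those of Mcm5 at -164 and -149.

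**Figure D1:**
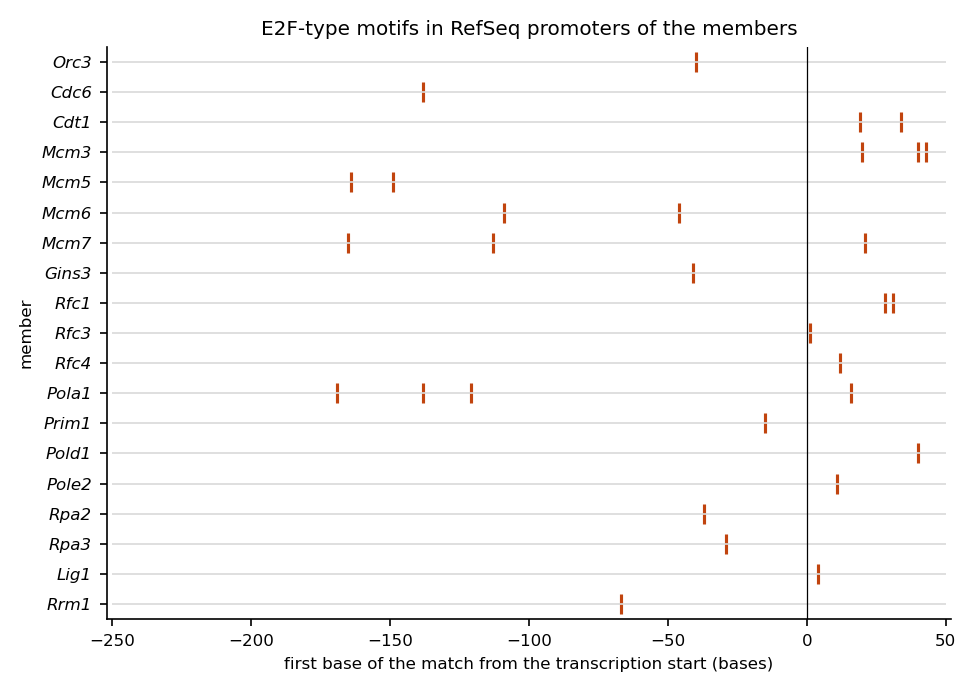
Matches to the E2F letters TTGGCGC and TTCCCGC, on either strand, in the RefSeq promoters of the 19 members that hold them. Each tick is the first base of a match, the horizontal axis is the distance from the transcription start in bases, and members with several promoters share a line; matches lay on both sides of the start.

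Sums of FPKM ran from 423303 to 616485 per library, 10240 to 11574 genes reached 1 FPKM, and the sequencing depth is unknown from the files. Trp53 had 16.75 and 19.82 FPKM in p53KO_G2, against 70.97 and 59.85 FPKM in p53WT_G2, 34.9 to 45.7 FPKM in p53KO_3dai, against 133.6 to 160.8 FPKM in p53WT_3dai, and 6.34 to 12.2 FPKM in p53KO, against 39.95 to 53.9 FPKM in p53WT. The genotypes did not overlap at any suffix, with differences of -1.78 ± 0.27 in G2, -1.80 ± 0.22 in 3dai and -2.37 ± 0.22 with no suffix on the log2 scale (limma, adjusted p = 0.0181, 0.0036 and 1.88e-04). Genes of the sort followed the gates: Cd34 had 27.1 to 140 FPKM and Itga7 81.1 to 317 FPKM in all 16 libraries, while Ptprc reached at most 0.00898, Itgam 0.286, Pecam1 2.09 and Ly6a 6.6 FPKM. Mir6236, a microRNA gene, took 9.81% and 10.1% of the FPKM of p53KO_3dai replicates 2 and 3, against 0.277% to 2.36% in the other libraries. An exact 0 may be a failed estimate or a silent gene, and the deposited values do not tell these apart. Across the 16 libraries 94 genes with a median over 20 FPKM are listed at 0 somewhere. A gene silent with no suffix and high elsewhere can also meet that rule. Of the 672 member values 23 were 0, all with the status OK, in 9 members. Those members are given library by library with no group mean.

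All 42 replication genes were higher in 3dai than with no suffix, in both genotypes. Differences are on the log2(FPKM + 1) scale with their standard errors (±), a scale on which low genes appear to change less than they did, and a gene is called where the adjusted p of limma is under 0.05. In p53KO_3dai against p53KO 42 of 42 were called higher, against 30.4% of all 12954 genes tested, and in p53WT_3dai against p53WT 42 of 42, against 31.8% of all genes. The median difference of the members was 3.22 in p53KO and 3.45 in p53WT, beside medians over all genes of 0.14 and 0.23. It ran between 0.87 (Pcna) and 6.13 (Tk1) in p53KO and between 1.30 (Pcna) and 6.57 (Gmnn) in p53WT, and no 3dai library overlapped a library with no suffix for any member, against 33.8% and 35.6% of all genes that were higher with no overlap. In FPKM, the ratio of group means had a median of 9.46 over the 36 members with no 0 in p53KO and of 11.7 over 34 members in p53WT.

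The members' share of all FPKM shows the same order of the suffixes in each library. It was 0.311% and 0.224% in p53KO_G2, 0.227% and 0.221% in p53WT_G2, 0.553%, 0.423% and 0.455% in p53KO_3dai, 0.536%, 0.548% and 0.494% in p53WT_3dai, 0.0735%, 0.0751% and 0.0817% in p53KO, and 0.0732%, 0.0774% and 0.0768% in p53WT. The 6 libraries of 3dai were highest, the 4 of G2 intermediate and the 6 with no suffix lowest, with no overlap. In bulk RNA, fewer cells with a transcript and less of it per cell cannot be told apart.

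Marker lists of other cell types moved with the suffixes. Pericyte and smooth muscle markers summed to 19.6 to 53.6 FPKM in p53KO_3dai and 24.7 to 41.7 FPKM in p53WT_3dai, against 373.9 to 545.7 FPKM in p53KO and 361.3 to 949.9 FPKM in p53WT, and 7 of 7 fell in each genotype. Of the fibro-adipogenic markers 4 of 7 fell in each genotype, of the tenocyte markers 5 of 6, and of the Schwann cell markers 4 of 6 in p53KO and 5 of 6 in p53WT. Muscle stem cell markers summed to 777.4 to 913 FPKM in p53KO_3dai and 855.8 to 898.2 FPKM in p53WT_3dai, against 2515 to 3257 FPKM in p53KO and 2542 to 3381 FPKM in p53WT. Of the muscle stem cell markers 7 of 10 fell in each genotype. Against these falls, 1 tenocyte marker and 1 muscle stem cell marker rose in each genotype, and 1 Schwann cell marker rose in p53WT. Of 5 markers of differentiating myoblasts 4 rose and 1 fell in 3dai against no suffix in each genotype, and 4 rose and 0 fell in G2. In G2, mature fibre markers summed to 255 to 590 FPKM in p53KO_G2 and 377.5 to 902.1 FPKM in p53WT_G2, against 46.4 to 62.8 FPKM in p53KO and 20.02 to 87.4 FPKM in p53WT. Ckm is counted in the lists of both differentiating myoblasts and mature fibres. The part of these cell types in the replication results was not tested.

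**Figure D2:**
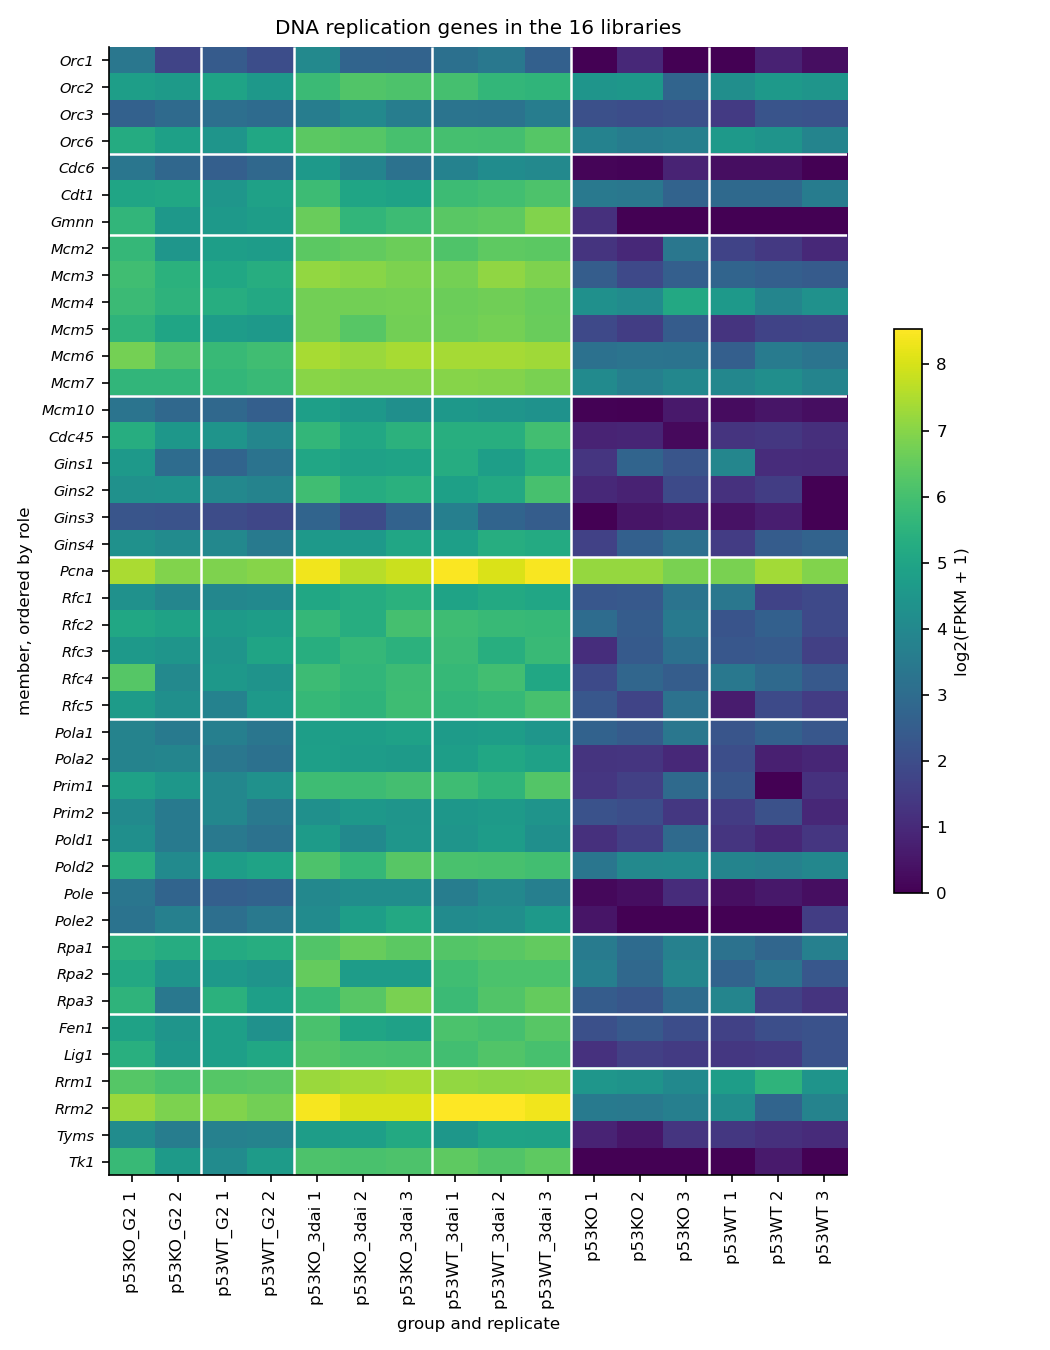
Level of the 42 members, as log2(FPKM + 1), in each of the 16 libraries (columns, by group and replicate), with members in rows ordered by role and white lines between roles and groups. The 3dai columns are brightest, the G2 columns intermediate and the columns with no suffix darkest for nearly all members, while Pcna is bright throughout.

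Genes of origin recognition had the smallest median difference of the 9 roles in 3dai, 2.36 in p53KO and 1.61 in p53WT over Orc1, Orc2, Orc3 and Orc6, all 4 called in each. Orc1, which opens the complex to loading in G1, had 9.37 and 2.33 FPKM in p53KO_G2, 4.45 and 3.09 in p53WT_G2, 15.03, 5.72 and 5.55 in p53KO_3dai, 7.91, 9.64 and 5.16 in p53WT_3dai, against 0, 0.968 and 0 in p53KO and 0, 0.749 and 0.236 in p53WT. Its levels were low throughout and p53KO_G2 replicate 1 was 4.02 times replicate 2. Orc2, a core subunit, had 26.4 and 24.2 FPKM in p53KO_G2, 29.9 and 22.4 in p53WT_G2, 55.02, 74.1 and 70.8 in p53KO_3dai, 64.1, 49.7 and 46.6 in p53WT_3dai, against 20.9, 22.1 and 5.77 in p53KO and 17.8, 22.9 and 20.8 in p53WT. The p53KO libraries spread 3.83-fold, and p53WT_G2 overlapped p53WT. Orc6, which helps recruit the helicase, had 37.5 and 27.7 FPKM in p53KO_G2, 20.7 and 33.3 in p53WT_G2, 81.6, 77.1 and 65.97 in p53KO_3dai, 63.4, 63.04 and 76.3 in p53WT_3dai, against 12.7, 10.9 and 11.9 in p53KO and 23.6, 20.6 and 13.6 in p53WT. Orc6 rose by 2.56 ± 0.23 in p53KO_3dai against p53KO and by 1.79 ± 0.23 in p53WT_3dai against p53WT (adjusted p = 2.48e-07 and 9.3e-06), and fell by 1.19 ± 0.25 in p53KO_G2 against p53KO_3dai (adjusted p = 0.00374). Orc2 fell by 1.35 ± 0.39 in that last comparison (adjusted p = 0.0222). Without p53KO_G2 replicate 2 the fall of Orc6 was not called (adjusted p = 0.0604), and that of Orc2 was not called without p53KO_3dai replicate 2 or 3 or either p53KO_G2 library (0.0644 to 0.12). Orc3, another core subunit, had the lowest 3dai differences of p53KO at 1.69 ± 0.26 apart from Pcna, and 3 of its values carry the status FAIL in the files; with these set to missing its call in p53KO_G2 against p53KO_3dai was lost (adjusted p = 0.0279 with them, 0.0583 without).

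Loading factors were called higher in 3dai and in G2 than with no suffix, 3 of 3 in each genotype. Against 3dai, 3 of 3 were called lower in p53WT_G2 and 0 of 3 in p53KO_G2. Gmnn encodes geminin, which holds Cdt1 back after origins have fired, and its difference in p53WT_3dai was the largest of any member. It had 47.8 and 22.3 FPKM in p53KO_G2, 23.7 and 26.1 in p53WT_G2, 95.1, 48.6 and 57.2 in p53KO_3dai, 80.99, 85.3 and 120.4 in p53WT_3dai, against 1.27, 0 and 0 in p53KO and 0, 0 and 0 in p53WT. Gmnn was thus listed at 0 in all 3 p53WT libraries and in 2 of the 3 p53KO libraries, so that its difference depends on the pseudocount: 5.63 ± 0.36 in p53KO_3dai against p53KO and 6.57 ± 0.36 in p53WT_3dai against p53WT (adjusted p = 8.15e-09 and 2.03e-09). In G2 the differences from no suffix were 4.68 ± 0.40 in p53KO and 4.69 ± 0.40 in p53WT (adjusted p = 8.04e-07 and 9.5e-07). Cdt1, the partner that geminin binds, had 31.1 and 32.6 FPKM in p53KO_G2, 21.3 and 28.4 in p53WT_G2, 56.1, 31.5 and 29.5 in p53KO_3dai, 56.1, 60.95 and 69.5 in p53WT_3dai, against 10.03, 9.33 and 5.53 in p53KO and 6.49, 6.59 and 10.96 in p53WT. Cdt1 was above 5 FPKM in every library with no suffix, and 2 of the 3 p53KO_3dai libraries lay near the G2 libraries. Cdc6, the ATPase of loading, had 9.27 and 6.24 FPKM in p53KO_G2, 5.04 and 6.41 in p53WT_G2, 23.01, 13.4 and 8.38 in p53KO_3dai, 12.7, 16.8 and 15.4 in p53WT_3dai, against 0.0908, 0.0628 and 0.785 in p53KO and 0.238, 0.233 and 0 in p53WT. It was under 1 FPKM in every library with no suffix.

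The 6 subunits of the Mcm helicase ring all rose in 3dai and in G2, from unlike levels with no suffix. On mm10 they lie apart, Mcm3 and Mcm6 on chromosome 1, Mcm2 on 6, Mcm4 on 16, Mcm5 on 8 and Mcm7 on 5. Mcm2 had 50.4 and 21.6 FPKM in p53KO_G2, 26.7 and 25.4 in p53WT_G2, 82.1, 88.6 and 96.8 in p53KO_3dai, 71.7, 83.7 and 81.7 in p53WT_3dai, against 1.42, 0.976 and 9.45 in p53KO and 2.25, 1.65 and 0.972 in p53WT. Mcm3 had 59.2 and 42.3 FPKM in p53KO_G2, 33.1 and 38.5 in p53WT_G2, 143, 128 and 115 in p53KO_3dai, 106, 139 and 116 in p53WT_3dai, against 4.67, 2.67 and 4.96 in p53KO and 5.699, 4.93 and 4.47 in p53WT. Both were under 10 FPKM in all 6 libraries with no suffix, and p53KO replicate 3 stood above the other p53KO libraries for Mcm2. Mcm4 had 55.3 and 44.98 FPKM in p53KO_G2, 39.2 and 34.9 in p53WT_G2, 103, 105 and 107 in p53KO_3dai, 98.1, 101 and 93.8 in p53WT_3dai, against 18.3, 16.3 and 34.3 in p53KO and 23.4, 13.7 and 19.04 in p53WT. Mcm5 had 45.6 and 31.1 FPKM in p53KO_G2, 25.2 and 23.5 in p53WT_G2, 103, 78.2 and 104 in p53KO_3dai, 100.5, 108 and 95.3 in p53WT_3dai, against 2.65, 1.904 and 4.62 in p53KO and 1.46, 2.28 and 2.46 in p53WT. Mcm4 kept 13.7 FPKM or more with no suffix, whereas Mcm5 was under 5 FPKM there, and in 3dai they had 93.8 to 107.4 FPKM and 78.2 to 107.7 FPKM. Mcm6 had 108 and 69.3 FPKM in p53KO_G2, 53.3 and 59.2 in p53WT_G2, 169.7, 151 and 172 in p53KO_3dai, 165, 164 and 158 in p53WT_3dai, against 8.13, 8.77 and 8.497 in p53KO and 5.01, 10.6 and 8.797 in p53WT. Mcm7 had 47.8 and 48.04 FPKM in p53KO_G2, 48.8 and 54.7 in p53WT_G2, 129.5, 124 and 124 in p53KO_3dai, 125, 122 and 111 in p53WT_3dai, against 15.8, 11.8 and 14.4 in p53KO and 14.4, 17.8 and 13.3 in p53WT. Mcm6 was the highest subunit in every 3dai library and also in every G2 library.

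Mcm4 and Mcm7, the highest subunits with no suffix, had the smallest differences in 3dai. Mcm2 rose by 4.61 ± 0.47 in p53KO_3dai against p53KO and by 4.96 ± 0.47 in p53WT_3dai against p53WT (adjusted p = 1.06e-06 and 5.23e-07), and Mcm5 by 4.61 ± 0.25 and 5.07 ± 0.25 (adjusted p = 1.91e-09 and 8.64e-10). Mcm3 rose by 4.69 ± 0.21 in p53KO_3dai against p53KO (adjusted p = 4.5e-10). Mcm4 rose by 2.22 ± 0.24 in p53KO and 2.35 ± 0.24 in p53WT, and Mcm7 by 3.09 ± 0.16 and 2.90 ± 0.16. In G2, Mcm2 rose by 3.40 ± 0.52 in p53WT_G2 against p53WT (adjusted p = 2.37e-04), Mcm3 by 3.35 ± 0.24 in p53KO_G2 against p53KO (adjusted p = 1.66e-07), and Mcm5 by 3.31 ± 0.28 and 3.06 ± 0.28 in p53KO and p53WT (adjusted p = 7.09e-07 and 1.71e-06). Against 3dai, G2 was lower: Mcm5 fell by 1.30 ± 0.28 in p53KO_G2 against p53KO_3dai and fell by 2.01 ± 0.28 in p53WT_G2 against p53WT_3dai (adjusted p = 0.00379 and 1.61e-04), and Mcm3 fell by 1.34 ± 0.24 and fell by 1.72 ± 0.24 (adjusted p = 0.00112 and 1.73e-04). Without p53KO_G2 replicate 2 the fall of Mcm5 in p53KO_G2 was -1.03 and not called (adjusted p = 0.0662). Mcm7 fell by 1.37 ± 0.18 in p53KO_G2 against p53KO_3dai (adjusted p = 1.09e-04), the smallest adjusted p of the members there.

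**Figure D3:**
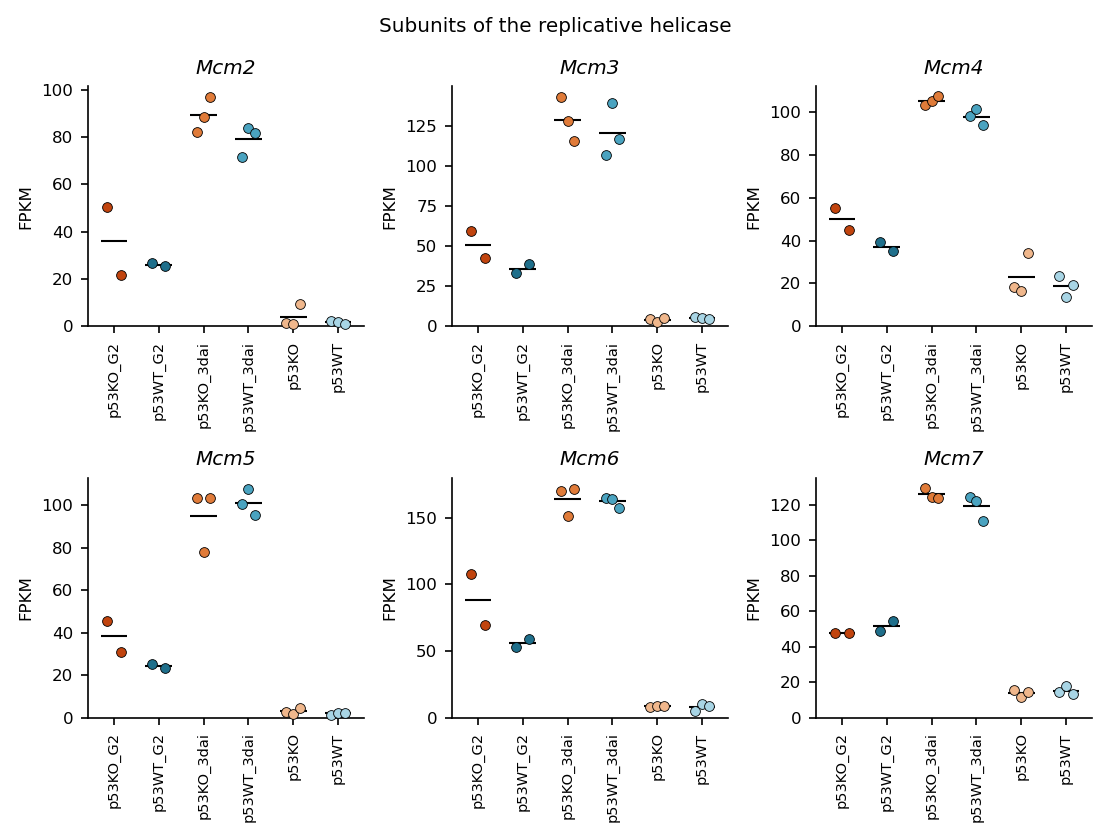
FPKM of the 6 helicase subunits in each library (points), by group, with the group mean as a bar (n = 2 in the G2 groups, 3 in the others); each vertical axis starts at 0. For each subunit the 3dai points lie above the G2 points, and the G2 points above those with no suffix.

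All 6 helicase activation factors rose in 3dai in both genotypes, and all but Gins1 rose in G2. Cdc45, which completes the working helicase, had 38.96 and 22.1 FPKM in p53KO_G2, 20.5 and 14.3 in p53WT_G2, 48.9, 33.7 and 43.6 in p53KO_3dai, 39.4, 40.0 and 61.3 in p53WT_3dai, against 0.793, 0.826 and 0.161 in p53KO and 1.44, 1.62 and 1.21 in p53WT. It was under 2 FPKM in all 6 libraries with no suffix and at least 14.3 FPKM in all others. Cdc45 rose by 4.77 ± 0.29 in p53KO_3dai against p53KO (adjusted p = 4.84e-09) and by 4.28 ± 0.32 in p53KO_G2 against p53KO (adjusted p = 2.12e-07). Mcm10, which acts when the origin melts, had 8.803 and 6.38 FPKM in p53KO_G2, 6.397 and 5.06 in p53WT_G2, 26.96, 22.2 and 17.9 in p53KO_3dai, 22.3, 20.8 and 19.4 in p53WT_3dai, against 0.0398, 0 and 0.489 in p53KO and 0.213, 0.396 and 0.252 in p53WT. Mcm10 fell by 1.44 ± 0.30 in p53KO_G2 against p53KO_3dai and fell by 1.70 ± 0.30 in p53WT_G2 against p53WT_3dai (adjusted p = 0.00288 and 9.67e-04), calls that a pseudocount of 0.1 ended (adjusted p = 0.0925 and 0.0517). The 4 GINS subunits were uneven. Gins1 had 23.4 and 7.005 FPKM in p53KO_G2, 5.804 and 8.44 in p53WT_G2, 32.1, 28.2 and 29.7 in p53KO_3dai, 37.7, 26.6 and 40.5 in p53WT_3dai, against 1.48, 5.66 and 3.79 in p53KO and 14.1, 1.14 and 1.05 in p53WT. In p53WT replicate 1 Gins1 was 13.4 times replicate 3 and above both p53WT_G2 libraries, and Gins1 was called in neither G2 comparison with no suffix, while it fell by 2.14 ± 0.70 in p53WT_G2 against p53WT_3dai (adjusted p = 0.0408). That last call was lost with a pseudocount of 0.1 (adjusted p = 0.0852), with no filter (0.0766) and without any 1 of the 5 libraries (0.0573 to 0.21). Gins2 had 18.8 and 19.6 FPKM in p53KO_G2, 14.9 and 13.1 in p53WT_G2, 59.5, 38.4 and 41.3 in p53KO_3dai, 27.6, 34.5 and 65.8 in p53WT_3dai, against 0.9799, 0.773 and 2.78 in p53KO and 1.33, 1.94 and 0 in p53WT. Gins2 rose by 4.42 ± 0.41 in p53WT_3dai (adjusted p = 4.21e-07) and by 2.98 ± 0.46 in p53WT_G2 (adjusted p = 2.28e-04), each against p53WT. Gins4 had 18.8 and 16.4 FPKM in p53KO_G2, 14.97 and 10.2 in p53WT_G2, 22.99, 23.3 and 31.9 in p53KO_3dai, 27.2, 39.1 and 36.5 in p53WT_3dai, against 2.12, 5.18 and 7.77 in p53KO and 1.88, 4.602 and 5.59 in p53WT. Gins4 spread 3.68-fold among the p53KO libraries. Gins3 had 3.799 and 3.53 FPKM in p53KO_G2, 2.97 and 2.56 in p53WT_G2, 5.78, 2.91 and 5.38 in p53KO_3dai, 11.8, 5.76 and 4.73 in p53WT_3dai, against 0, 0.385 and 0.526 in p53KO and 0.336, 0.635 and 0 in p53WT. Its levels were low throughout, with p53WT_3dai replicate 1 the highest library.

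Pcna, the sliding clamp, was the member with the smallest difference from no suffix in 3dai and G2. It had 174 and 121 FPKM in p53KO_G2, 118 and 126 in p53WT_G2, 327, 196 and 228 in p53KO_3dai, 355, 264 and 349.7 in p53WT_3dai, against 144, 145 and 113 in p53KO and 111, 161 and 121 in p53WT. With no suffix it was already at 110.7 FPKM or more, the highest member there, and the G2 libraries overlapped those with no suffix in both genotypes. Pcna rose by 0.87 ± 0.22 in p53KO_3dai against p53KO and by 1.30 ± 0.22 in p53WT_3dai against p53WT (adjusted p = 0.00341 and 1.37e-04), and its G2 differences of 0.12 ± 0.24 in p53KO and -0.08 ± 0.24 in p53WT were not called (adjusted p = 0.744 and 0.849). Processed pseudogenes of Pcna and Tyms are annotated in the reference, but of these only Tyms-ps is among the deposited genes. The authors' counting could have divided reads between gene and pseudogene, which was not tested. The subunits of its loader, Rfc1 to Rfc5, rose in all 4 comparisons with no suffix. Rfc5 had 24.7 and 18.1 FPKM in p53KO_G2, 12.6 and 23.7 in p53WT_G2, 51.3, 45.4 and 58.6 in p53KO_3dai, 48.1, 51.8 and 64.8 in p53WT_3dai, against 4.03, 2.34 and 8.28 in p53KO and 0.567, 2.75 and 1.84 in p53WT. Rfc5 rose by 4.44 ± 0.37 in p53WT_3dai against p53WT (adjusted p = 1.62e-07) and fell by 1.24 ± 0.42 in p53KO_G2 against p53KO_3dai (adjusted p = 0.0424). The fall of Rfc5 was not called with a pseudocount of 0.1 (adjusted p = 0.118), with no filter (0.0689) or without any 1 of the 5 libraries (0.0658 to 0.235).

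Other loader subunits also split between replicates. Rfc4 had 76.4 and 15.2 FPKM in p53KO_G2, 22.5 and 19.9 in p53WT_G2, 56.5, 48.4 and 56.2 in p53KO_3dai, 52.05, 60.2 and 32.9 in p53WT_3dai, against 2.75, 6.11 and 4.76 in p53KO and 9.76, 6.49 and 4.21 in p53WT. The p53KO_G2 libraries differed 5.01-fold, replicate 1 being above every other library of the series. Rfc1 had 18.7 and 14.02 FPKM in p53KO_G2, 14.4 and 15.7 in p53WT_G2, 32.98, 38.3 and 42.9 in p53KO_3dai, 29.96, 35.7 and 31.9 in p53WT_3dai, against 4.01, 4.26 and 8.82 in p53KO and 9.33, 2.28 and 2.72 in p53WT. Rfc2 had 32.7 and 29.2 FPKM in p53KO_G2, 23.9 and 26.2 in p53WT_G2, 50.03, 39.1 and 63.6 in p53KO_3dai, 58.1, 52.4 and 52.1 in p53WT_3dai, against 7.02, 4.6 and 10.3 in p53KO and 3.603, 5.096 and 2.72 in p53WT. Rfc1 in p53WT replicate 1 was 4.1 times the lowest p53WT library, and Rfc2 was more even. Rfc3 had 23.1 and 20.97 FPKM in p53KO_G2, 20.9 and 30.4 in p53WT_G2, 39.4, 50.6 and 43.97 in p53KO_3dai, 55.8, 40.1 and 53.6 in p53WT_3dai, against 1.16, 4.37 and 7.95 in p53KO and 3.99, 4.28 and 2.09 in p53WT. It spread 6.82-fold among the p53KO libraries.

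Polymerase and primase genes were all called higher in 3dai and G2 against no suffix in both genotypes, 8 of 8 in each of the 4 comparisons. Prim1, the catalytic subunit of primase, had 28.3 and 22.1 FPKM in p53KO_G2, 14.3 and 19.1 in p53WT_G2, 57.5, 56.3 and 63.1 in p53KO_3dai, 58.8, 47.2 and 75.1 in p53WT_3dai, against 1.53, 2.04 and 6.82 in p53KO and 3.903, 0 and 1.34 in p53WT. Prim1 rose by 4.74 ± 0.48 in p53WT_3dai (adjusted p = 9.26e-07) and by 2.96 ± 0.53 in p53WT_G2 (adjusted p = 7.91e-04), each against p53WT, and fell by 1.78 ± 0.53 in p53WT_G2 against p53WT_3dai (adjusted p = 0.0271). The fall of Prim1 was not called with a pseudocount of 0.1 (adjusted p = 0.248), with no filter (0.0524), or without p53WT_3dai replicate 1 or 3 or either p53WT_G2 library (0.0602 to 0.171). Pole2, the second subunit of the leading-strand polymerase epsilon, had 8.44 and 12.2 FPKM in p53KO_G2, 7.77 and 9.83 in p53WT_G2, 16.2, 26.6 and 34.4 in p53KO_3dai, 16.2, 17.8 and 23.4 in p53WT_3dai, against 0.395, 0 and 0 in p53KO and 0, 0 and 1.93 in p53WT. It was listed at 0 in 4 of the 6 libraries with no suffix and rose by 3.32 ± 0.45 in p53KO_G2 against p53KO (adjusted p = 6.78e-05). Pold1, the catalytic subunit of the lagging-strand polymerase delta, had 17.9 and 10.6 FPKM in p53KO_G2, 9.96 and 8.38 in p53WT_G2, 24.5, 15.6 and 21.2 in p53KO_3dai, 20.8, 25.3 and 18.2 in p53WT_3dai, against 1.28, 2.03 and 6.67 in p53KO and 1.51, 0.939 and 1.55 in p53WT. Pold2, its partner, had 41.1 and 15.8 FPKM in p53KO_G2, 26.1 and 30.1 in p53WT_G2, 70.4, 50.98 and 79.3 in p53KO_3dai, 66.9, 65.8 and 60.2 in p53WT_3dai, against 9.21, 15.2 and 15.8 in p53KO and 13.5, 12.5 and 14.6 in p53WT. Pold1 spread 5.21-fold among the p53KO libraries, and Pold2 in p53KO_G2 replicate 2 overlapped p53KO although its difference of 0.92 ± 0.32 was called (adjusted p = 0.0441). Pold2 fell by 1.33 ± 0.32 in p53KO_G2 against p53KO_3dai (adjusted p = 0.0087). Without p53KO_G2 replicate 2 that difference was -0.67 and not called (adjusted p = 0.178), nor was it called with only the groups compared (0.135) or without p53KO_3dai replicates 2 and 3 (0.0764). Pola1 and Pola2, of the polymerase that extends the primer, Prim2, the regulatory primase subunit, and Pole, the catalytic subunit of epsilon, had 3dai differences of 1.98 to 3.60 in p53KO and 2.24 to 3.69 in p53WT.

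RPA subunits Rpa2 and Rpa3 were uneven between replicates. Rpa2 had 34.8 and 20.4 FPKM in p53KO_G2, 23.4 and 20.2 in p53WT_G2, 91.5, 25.1 and 25.4 in p53KO_3dai, 59.4, 68.7 and 69.1 in p53WT_3dai, against 11.7, 6.41 and 14.04 in p53KO and 5.58, 8.46 and 3.98 in p53WT. In p53KO_3dai replicate 1 was 3.65 times replicate 2, and replicates 2 and 3 lay among the G2 libraries. Rpa3, the smallest subunit, had 45.5 and 9.62 FPKM in p53KO_G2, 42.8 and 27.1 in p53WT_G2, 52.4, 78.2 and 112 in p53KO_3dai, 54.9, 72.6 and 90.3 in p53WT_3dai, against 4.59, 3.903 and 7.08 in p53KO and 13.8, 2.11 and 1.44 in p53WT. Its p53WT libraries spread 9.57-fold and its p53KO_G2 libraries 4.73-fold. Rpa1, the large DNA-binding subunit, was even, with 43.9 and 37.9 FPKM in p53KO_G2 and 35.8 and 38.4 FPKM in p53WT_G2, against 6.99 to 12.6 FPKM in p53KO and 6.05 to 12.04 FPKM in p53WT. It had 73.8 to 92.3 FPKM in p53KO_3dai and 75.5 to 89.2 FPKM in p53WT_3dai.

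Fen1, the flap nuclease, and Lig1, the ligase that seals the fragments, rose in all 4 comparisons with no suffix. Lig1 had 41.2 and 22.2 FPKM in p53KO_G2, 26.9 and 32.8 in p53WT_G2, 74.5, 66.8 and 65.04 in p53KO_3dai, 61.1, 73.7 and 65.9 in p53WT_3dai, against 1.35, 2.08 and 1.79 in p53KO and 1.64, 1.76 and 3.48 in p53WT. Lig1 rose by 4.68 ± 0.26 in p53KO_3dai (adjusted p = 2.03e-09) and by 3.52 ± 0.29 in p53KO_G2 (adjusted p = 4.81e-07), each against p53KO, and by 3.27 ± 0.29 in p53WT_G2 against p53WT (adjusted p = 1.23e-06). Fen1 had 29.4 and 21.1 FPKM in p53KO_G2, 26.9 and 19.1 in p53WT_G2, 67.4, 31.2 and 28.4 in p53KO_3dai, 68.9, 63.7 and 79 in p53WT_3dai, against 3.2, 4.17 and 3.05 in p53KO and 2.12, 3.103 and 3.41 in p53WT. The groups of Lig1 kept apart by suffix, while Fen1 in p53KO_3dai replicates 2 and 3 lay close to p53KO_G2 replicate 1.

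Among genes of nucleotide synthesis, Tk1 had the largest difference of any member in p53KO, in 3dai and in G2 against no suffix. Tk1, the S-phase thymidine kinase, had 53.1 and 24.1 FPKM in p53KO_G2, 16.2 and 24.6 in p53WT_G2, 69.7, 66.3 and 70.7 in p53KO_3dai, 84.7, 73.9 and 85.2 in p53WT_3dai, against 0, 0 and 0 in p53KO and 0, 0.541 and 0 in p53WT. It was listed at 0 in all 3 p53KO libraries and in 2 of the 3 p53WT libraries, so its difference depends on the pseudocount: 6.13 ± 0.28 in p53KO_3dai against p53KO and 6.15 ± 0.28 in p53WT_3dai against p53WT (adjusted p = 4.5e-10 and 4.95e-10). In G2 it was 5.20 ± 0.31 in p53KO and 4.19 ± 0.31 in p53WT (adjusted p = 4.45e-08 and 2.67e-07), and Tk1 fell by 1.97 ± 0.31 in p53WT_G2 against p53WT_3dai (adjusted p = 5.15e-04). Rrm2, the regulated subunit of ribonucleotide reductase, had 152 and 114 FPKM in p53KO_G2, 119 and 105 in p53WT_G2, 339.5, 265 and 267 in p53KO_3dai, 370.0, 366 and 327 in p53WT_3dai, against 10.3, 10.02 and 11.9 in p53KO and 17.3, 5.72 and 13.1 in p53WT. By group mean Rrm2 was the highest member in both 3dai groups, and its groups were ordered 3dai, G2, no suffix with no overlap. Rrm2 rose by 4.63 ± 0.27 in p53KO_3dai against p53KO and by 4.88 ± 0.27 in p53WT_3dai against p53WT (adjusted p = 4.33e-09 and 2.67e-09), by 3.50 ± 0.31 and 3.23 ± 0.31 in G2 in p53KO and p53WT (adjusted p = 1.03e-06 and 2.54e-06), and fell by 1.65 ± 0.31 in p53WT_G2 against p53WT_3dai (adjusted p = 0.00153). Rrm1, its large partner, had 76.1 and 67.4 FPKM in p53KO_G2, 77.1 and 80.7 in p53WT_G2, 152, 162 and 171 in p53KO_3dai, 141, 134 and 139 in p53WT_3dai, against 21.2, 20.1 and 15.7 in p53KO and 26.1, 45.5 and 20.6 in p53WT. Rrm1 kept 15.7 FPKM or more with no suffix, where Rrm2 was the lower of the pair in every library. Tyms, thymidylate synthase, stayed at or under 1.6 FPKM with no suffix and had 26.1 to 35.2 FPKM in p53KO_3dai and 22.1 to 29.9 FPKM in p53WT_3dai.

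G2 libraries held most members between 3dai and no suffix. In p53KO_G2 against p53KO 38 of 42 were called higher, against 22.5% of all genes, with a median difference of 2.14 beside 0.31 over all genes; Orc2, Orc3, Gins1 and Pcna were not called, and 40 did not overlap, against 37.4% of all genes. In p53WT_G2 against p53WT 38 of 42 were called higher, against 22.1% of all genes, with a median of 2.21 beside 0.33; Orc2, Orc6, Gins1 and Pcna were not called, and 38 did not overlap, against 41% of all genes. All libraries of G2 lay between all of 3dai and all of no suffix for 31 of 42 members in p53KO and 38 of 42 in p53WT, against 11.6% and 13.8% of all genes. With only the p53KO_G2 and p53KO groups in the fit, 25 members were called in place of 38, and 16.3% of all genes in either direction in place of 29.6%.

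Against 3dai, no member was called higher in G2. In p53KO_G2 against p53KO_3dai 20 of 42 were called lower, against 7.1% of all genes, with a median of -1.04 beside 0.12 over all genes. In p53WT_G2 against p53WT_3dai 31 of 42 were called lower, against 6.7% of all genes, with a median of -1.27 beside 0.09. G2 was below 3dai with no overlap for 33 members in p53KO and 42 in p53WT, against 20.2% and 23.5% of all genes. Gmnn fell by 1.88 ± 0.40 in p53WT_G2 (adjusted p = 0.0038), and with a pseudocount of 0.1 its difference of -1.91 was not called (adjusted p = 0.133). The counts moved with single libraries: the p53KO count was 4 without p53KO_G2 replicate 2 and 13 without p53KO_3dai replicate 3, and the p53WT count was 15 without p53WT_G2 replicate 1 and 16 without replicate 2. With a pseudocount of 0.1 the p53WT count was 19. The share of all genes called in either direction was 11.8% and 14.9% in those p53KO fits in place of 23.2%, and 10.7%, 9.59% and 17.9% in those p53WT fits in place of 20.6%.

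Markers of several cell types and of muscle cells were higher in G2 than in 3dai. Pericyte and smooth muscle markers were called higher for 6 of 7 in p53KO_G2 against p53KO_3dai and 7 of 7 in p53WT_G2 against p53WT_3dai, and tenocyte markers for 4 of 6 and 5 of 6. Markers of differentiating myoblasts were higher for 5 of 5 in each, and mature fibre markers for 7 of 7 and 5 of 7, with Ckm in both lists. Fibro-adipogenic markers were higher for 3 of 7 and muscle stem cell markers for 6 of 10 in each genotype, and no marker of these 6 lists was called lower. The part of these markers in the lower replication values of G2 was not tested.

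**Figure D4:**
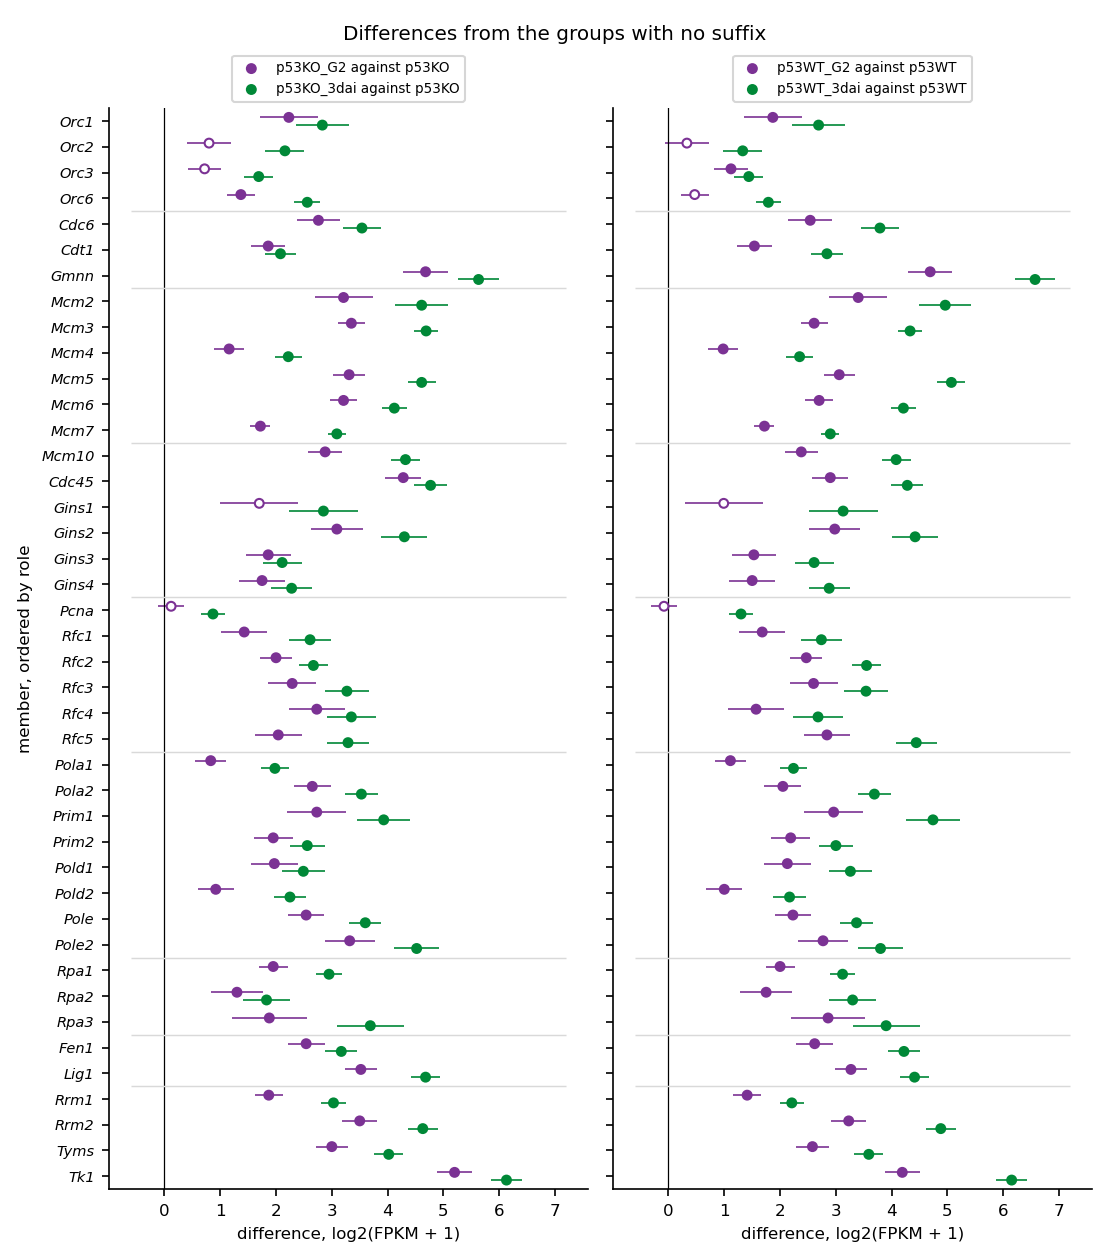
Log2(FPKM + 1) differences of the 42 members from the group with no suffix, with standard errors as bars, for G2 (purple) and 3dai (green), in p53KO (left) and p53WT (right). Filled points were called at an adjusted p under 0.05; open points, 4 of G2 in each panel and Pcna among them, were not called.

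Between genotypes no replication gene was called within any suffix. In p53KO against p53WT 0 of 42 were called, against 0.00772% of all genes, in p53KO_3dai against p53WT_3dai 0, against 0.0849%, and in p53KO_G2 against p53WT_G2 0, against 0.0695%. At an unadjusted p under 0.05 there were 5, 2 and 3 of the 42 members, against 3.95%, 8.89% and 4.87% of all genes. With no suffix the groups did not overlap for 0 higher and 2 lower of the 42 members, against 3.99% and 2.74% of all genes. In 3dai that held for 4 higher and 2 lower of the 42, against 5.07% and 6.91%. The median differences were 0.11, 0.02 and 0.30, beside 0.01, -0.02 and -0.01 over all genes. The smallest p with no suffix belonged to Rfc2 (0.76 ± 0.26), Rfc5 (1.07 ± 0.37) and Orc6 (-0.62 ± 0.23), each with an adjusted p of 1. Mcm6, for one, averaged 164.2 ± 11.4 FPKM in p53KO_3dai and 162.3 ± 4.15 FPKM in p53WT_3dai (SD, n = 3 each). A p that misses the limit does not show that the genotypes act alike.

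In 3dai the members with the smallest p were lower in p53KO_3dai, and their p53KO_3dai libraries were split. Fen1 differed by -0.83 ± 0.29, Cdt1 by -0.71 ± 0.28 and Pcna by -0.39 ± 0.22 (adjusted p = 0.37, 0.423 and 0.65). For each of these, replicates 2 and 3 lay below every p53WT_3dai library, whereas replicate 1 lay within the p53WT_3dai range for Fen1 and Pcna and level with its lowest library for Cdt1. Replicates 2 and 3 were the 2 lowest of the 6 libraries of 3dai for 7 members (Cdt1, Gmnn, Pcna, Pola2, Rpa2, Fen1 and Rrm2), or 16.7%, against 17.5% of all genes, and the 2 highest for 7 members, against 11.4% of all genes. Without p53KO_3dai replicate 1, 2 of the 42 members (Rpa2 and Fen1) were called lower in p53KO_3dai, while 3.95% of all genes were called in either direction. With array weights 3 of the 42 members (Cdt1, Rpa2 and Fen1) were called lower, while 6.21% of all genes were called. Without replicates 2 and 3 together, left out after the data were seen, Pcna differed by 0.03. These 2 replicates are those with the high share of Mir6236, and their Schwann cell markers summed to 10.7 and 5.66 FPKM, beside 61.05 FPKM in replicate 1; the part of either in the split was not tested.

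In G2, 1 library of p53KO_G2 stood high for most members. The smallest p belonged to Tk1 (0.81 ± 0.34), Mcm6 (0.61 ± 0.27) and Cdc45 (0.75 ± 0.35), with adjusted p of 0.981, 1 and 1. Of the 42 members, 14 were higher in p53KO_G2 with no overlap of the groups, a larger share than the 15% of all genes. Another 3 of the 42 were lower with no overlap, a smaller share than the 16.1% of all genes. Replicate 1 of p53KO_G2 was the highest of the 4 G2 libraries for 33 of 42 members (78.6%), against 30.2% of all genes, and replicate 2 for 4 members, against 24.9%. Without replicate 1 the median difference was 0.03 in place of 0.30. Mitosis genes summed to 916.3 FPKM in that replicate and 616.4 FPKM in replicate 2, against 610.4 and 590.3 FPKM in p53WT_G2, and pericyte and smooth muscle markers to 348.6 and 609 FPKM, against 630.4 and 735.7 FPKM; their part in the result was not tested.

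The difference between suffixes was also compared between genotypes. In the interaction with 3dai no member was called, against 0% of all genes by limma. An unadjusted p under 0.05 was seen for 6 of the 42 members, against 6% of all genes. Rrm1 (0.82 ± 0.32), Fen1 (-1.04 ± 0.41) and Rpa2 (-1.47 ± 0.60) had the smallest p (adjusted p = 0.82 for each), and without p53KO_3dai replicate 1 Rpa2 was called at -2.07 (adjusted p = 0.0333), as were 1.13% of all genes. In the interaction with G2 no member was called, against 0.0232% of all genes, and 4 of the 42 had an unadjusted p under 0.05, against 4.35%. Cdc45 (1.38 ± 0.45), Orc6 (0.91 ± 0.36) and Tk1 (1.02 ± 0.44) had the smallest p there, each with an adjusted p of 1. With no suffix p53KO replicate 3 was the highest of 6 libraries for 17 members, or 40.5%, against 28.1% of all genes.

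**Figure D5:**
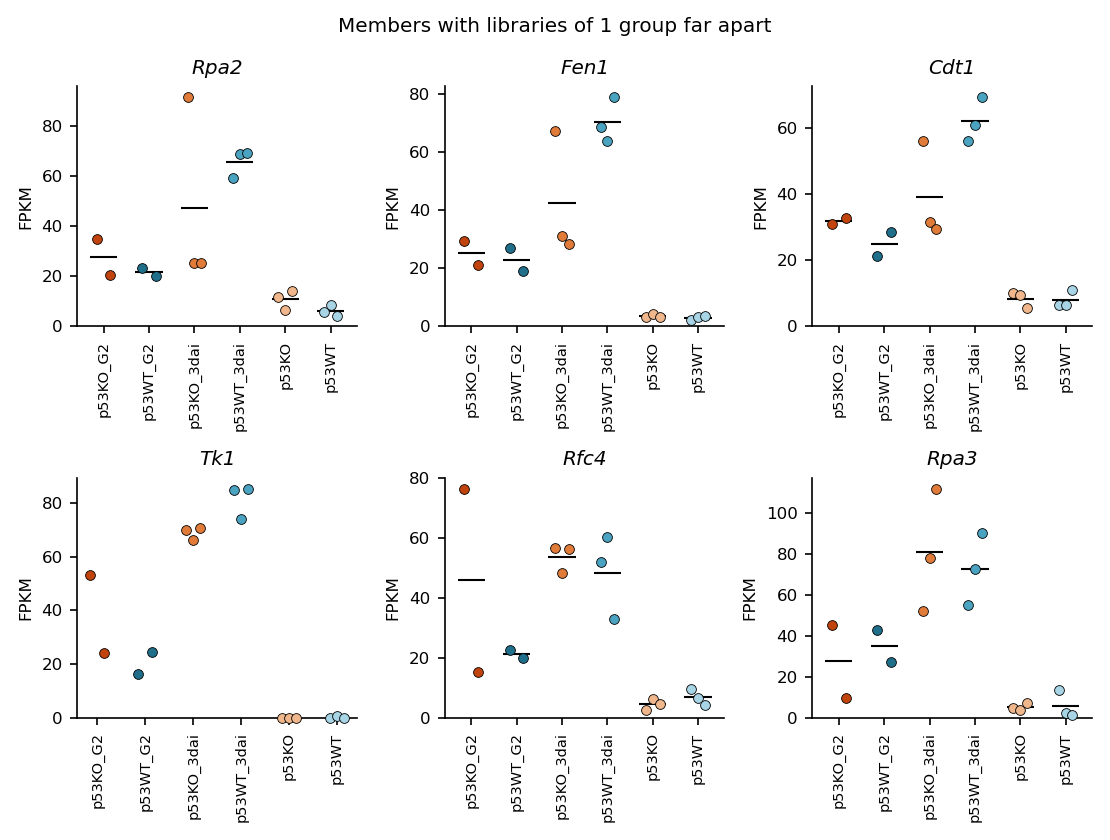
FPKM in each library (points) with the group mean as a bar except for Tk1, which has values listed at 0, for 6 members picked after their values were seen because libraries of a group lie far apart; each vertical axis starts at 0. Rpa2, Fen1 and Cdt1 split p53KO_3dai into 1 high and 2 low libraries, and Tk1, Rfc4 and Rpa3 split p53KO_G2 into 1 high and 1 low library.

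Since FPKM is per length, levels of different members can be set side by side. In p53KO_G2 the highest means were Pcna at 147.5 ± 37.2 and Rrm2 at 133.1 ± 26.3 FPKM (SD, n = 2), and in p53WT_G2 Pcna at 122.2 ± 5.56 and Rrm2 at 112.1 ± 10 FPKM (SD, n = 2). In p53KO_3dai they were Rrm2 at 290.7 ± 42.4, Pcna at 250.6 ± 68.4, Mcm6 at 164.2 ± 11.4 and Rrm1 at 161.6 ± 9.83 FPKM, and in p53WT_3dai Rrm2 at 354.3 ± 23.6, Pcna at 322.9 ± 51.1, Mcm6 at 162.3 ± 4.15 and Rrm1 at 138 ± 3.16 FPKM (SD, n = 3). The means of Rrm2 and Pcna lay within their spread of each other in all 4 groups, with no test made. In p53KO Pcna at 133.9 ± 18.3 FPKM stood well above Mcm4 at 22.96 ± 9.87 FPKM, and in p53WT Pcna at 130.7 ± 26.5 FPKM above Rrm1 at 30.73 ± 13.1 FPKM (SD, n = 3).

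Other genes of replication moved less uniformly. Of 28 further replication genes 25 rose and 2 fell in p53KO_3dai against p53KO (median 2.47), and 23 rose and 2 fell in p53WT_3dai against p53WT (median 2.38). Topbp1, which activates the checkpoint kinase Atr, rose by 4.26 ± 0.25 in p53KO_3dai against p53KO and 3.85 ± 0.25 in p53WT_3dai against p53WT. Pold4, a small subunit of polymerase delta, fell by 1.94 ± 0.54 and fell by 2.78 ± 0.54 in the same comparisons, and Top1, a topoisomerase that relaxes DNA, fell by 0.93 ± 0.30 and fell by 1.41 ± 0.30. In p53WT_G2 against p53WT_3dai Pold4 rose by 1.87 ± 0.60, while 16 of the 28 fell. Of 9 genes of chromatin assembly 9 rose in 3dai in each genotype, with medians of 3.58 in p53KO and 3.08 in p53WT, among them Asf1b, a histone chaperone, by 5.50 ± 0.29 and 5.20 ± 0.29. Of 14 genes of nucleotide supply 12 rose in p53KO_3dai and 11 in p53WT_3dai, with 0 lower; Dut, which destroys dUTP, rose by 4.42 ± 0.40 and 4.81 ± 0.40. Mitosis genes rose more, 22 of 22 in each genotype, with medians of 5.39 in p53KO and 5.16 in p53WT. In G2 22 of 22 mitosis genes rose as well, with medians of 4.31 in p53KO and 3.99 in p53WT, and against 3dai 13 of them fell in p53KO_G2 and 17 in p53WT_G2. None of these 4 lists had a gene called between genotypes.

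Counting limits apply to some members. Exons of Orc2, Orc6, Mcm7, Gins2, Rfc2, Rfc4, Rfc5, Fen1 and Tk1 share bases with an exon of a gene on the other strand that is also in the files. The libraries were made with a directional kit, but no source read here says whether counting used the strand. It is therefore unknown whether reads from the shared bases of these 9 members were kept apart from those of the neighbours. Exons of Orc1, Cdc45, Pole and Lig1 share bases with a gene on the other strand whose symbol is not among the deposited genes. On its own strand, Mcm7 shares exon bases with Mir25 and Mir93, which are among them.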

How the data were processed

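Bulk RNA of sorted muscle stem cells was measured in 16 libraries, made with the NEBNext Ultra II Directional kit per the labels' protocols. The authors deposited 1 table of FPKM values per library, with 24341 genes. The submitters' processing notes name STAR, Cufflinks, Cuffdiff and the build mm10; their versions and the total behind the scaling are not stated there. No counts are in these files, so depth and counting error are unknown.

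The deposited FPKM values were taken as log2(FPKM + 1), and genes with at least 1 FPKM in at least 2 libraries were kept (12954 genes). A linear model with 1 mean per group over all 16 libraries was fitted with limma 3.58.1 in R 4.3.3, with variances moderated across genes along their trend with level, and adjusted by the Benjamini-Hochberg method over all kept genes, with calls at an adjusted p under 0.05. The fit was tested on simulated data. Promoters, positions and figures were handled in Python 3.11.15.

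Alternatives were another pseudocount, other filters, quantile and median-of-ratios scaling, removal of mitochondrial genes and small RNAs, sample weights, only the groups compared, a replicate block, and each library left out. Named members are, per comparison between suffixes, the 8 called with the largest difference, and per genotype comparison or interaction the 3 with the smallest p where none was called. Values in every library are given for these, for Mcm2 to Mcm7, for the leading members of each role, and for members whose libraries of a group differed over 3-fold at over 5 FPKM. The members and lists were chosen with earlier results of these data known.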

Additional observations from a re-analysis of the deposited data

How the results depend on the processing

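In 3dai against no suffix all 42 members were called in both genotypes under each alternative except a filter at a mean of 5 FPKM, which Orc1 and Gins3 did not pass and which left 40 calls in each; medians moved with scaling. With a pseudocount of 0.1 the median difference was 3.62 in p53KO_3dai against p53KO, 4.28 in p53WT_3dai against p53WT, 2.73 in p53KO_G2 against p53KO and 2.82 in p53WT_G2 against p53WT. With median-of-ratios scaling these were 2.94, 3.16, 1.79 and 1.92, and with quantile normalization 3.19 in p53WT_3dai, 1.79 in p53KO_G2 and 1.85 in p53WT_G2, each against no suffix. Median-of-ratios scaling moved the median over all genes to -0.06 from 0.23 in p53WT_3dai against p53WT. In p53KO_G2 against p53KO, 25 members were called with only the groups compared, with 16.3% of all genes called. Leaving out 1 library gave medians of 1.87 to 2.56 there and of 2.15 to 2.33 in p53WT_G2 against p53WT. In both comparisons, leaving out any 1 library of the groups compared lowered the count of called members.

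In p53WT_G2 against p53WT_3dai 19 members were called with a pseudocount of 0.1, and 15 to 24 with 1 library left out. In p53KO_G2 against p53KO_3dai leaving out 1 library gave 4 to 21 calls and medians of -1.30 to -0.76, and p53KO_3dai replicates 2 and 3 left out together, chosen after seeing the data, gave 8 calls. In p53KO_3dai against p53WT_3dai array weights gave 3 calls, with 6.21% of all genes called, and leaving out 1 library 0 to 2, with 3.95% of all genes called where it was 2; Pcna turned to 0.03 without replicates 2 and 3. In p53KO_G2 against p53WT_G2 the median ran from 0.03 to 0.50 with 1 library left out. For the interaction with 3dai that gave 0 to 1 call, and for the interaction with G2 a median of -0.03 to 0.43. The cause of these shifts was not tested. Of 959 alternative values of single genes, 919 kept direction and side of the threshold, 35 lost the call, 4 gained it and 1 reversed. With the 4 E2F motifs the share of promoters was 60%, against 9.57% of all promoters and 16.5% of those of the genes tested.

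Replicate numbers showed no clear pairing of the libraries: over 36 same-numbered pairs the correlation of deviations ran from -0.16 to 0.13, with 1 above 0.1. Pairs with unlike numbers were not set beside them, so a weak pairing could have been missed. With the number as a replicate block 17 members were called in p53KO_G2 against p53KO_3dai and 28 in p53WT_G2 against p53WT_3dai; under the block the fall of Rfc5 in p53KO_G2 was -1.07 (adjusted p = 0.0728). With 2 libraries in each G2 group and no counts, the precision of low members is limited.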
